A study of Mus musculus with 6 samples.

Results

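Claudins and connexins are the membrane proteins of tight junctions and gap junctions, and their transcripts were followed here in the liver, ovary and uterus of immature mice given BHPF or its vehicle. Members were all genes on the array whose symbol begins with *Cldn* or with *Gja* to *Gje* and continues with a digit. This choice used no measured value, though it was made with earlier results of these data known. The rule found 51 of the 20284 genes with a symbol, of which 31 were claudins and 20 were connexins. They were read by 55 probes, and 4 genes, *Cldn2*, *Cldn4* and *Gja5* among them, had 2 probes each. A gene with 2 probes is represented below by the probe with the higher mean level over the 6 arrays. The symbols *Cldn25-ps*, *Cldn34c2*, *Cldn34c3* and *Cldn34c4* also fit the rule but were matched by no probe accession.

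Claudins seal the space between neighbouring epithelial or endothelial cells, and the mixture that a cell makes sets how tight the seal is and which ions pass, since some members form barriers and others form paracellular channels. Connexins assemble in groups into hemichannels that dock across the gap between cells and let ions and small molecules flow from one cytoplasm to the next. Hepatocytes are known for *Gjb1* and *Gjb2*, the follicle for *Gja1* in granulosa cells, and the uterus for *Gja1* in its muscle and several claudins in its epithelium.

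BHPF, fluorene-9-bisphenol, is a substitute for bisphenol A, and the study compared gene expression with and without it in immature female CD-1 mice. The labels give the mice as 24 days old and the treatment as BHPF at 50 mg per kg of body weight, with peanut oil for controls, given into the stomach once a day over 3 days. The 6 groups were control liver, BHPF liver, control ovary, BHPF ovary, control uterus and BHPF uterus, each with 1 one-colour Agilent array of 1 RNA pool mixed from 3 animals. The study gives the first day of dosing in differing ways, so the age at the start is uncertain. Because each group was a single pool, the spread between animals was not measured and a BHPF difference within a tissue has no replicate check. All arrays lay on 1 slide, with the controls in row 1 and the BHPF arrays in row 2, so that slide row cannot be told apart from treatment. Liver lay in column 1, ovary in column 2 and uterus in column 3, so that slide column cannot be told apart from tissue.

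The authors' scanner software gave each spot an intensity, with background subtracted, and marked the spots that stood well above background. The level of a probe is the log2 intensity minus the 75th percentile of its array, so a level of 0 means the 75th percentile and each unit is a doubling. Probes differ in how they bind, so levels are compared here between arrays for the same probe, except where the gene of highest signal in a marker list is named. Summed levels of a list cover its genes well above background on that array. The 75th percentile corresponded to intensities of 3443 and 3292 in control and BHPF liver, 7499.7 and 6389 in ovary, and 5335 and 4530.2 in uterus. The lowest intensity called well above background was 70.0 in control liver and 135 in BHPF uterus, the lowest and highest of the 6 arrays, and it sets what could be seen. Where a probe was not well above background on 1 of the arrays compared, it was set at that lowest intensity or at its own if higher, and the fold is given as at least N-fold. Between spots of 1 probe on 1 array the SD was 0.09 to 0.10 on the log2 scale, which gives 0.14 for a log2 ratio of 2 spots and leaves out differences between pools.

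The tissue labels were checked against marker genes. All 18 hepatocyte markers were well above background in liver, all 12 oocyte markers in ovary and all 12 uterine markers in uterus. Many markers were not restricted to their tissue. Of 11 granulosa cell markers, 8 were well above background on a liver array and 9 on a uterus array, with *Fshr* and *Amh* on neither, and *Foxl2* had a higher level in control liver, 5.12, than in control ovary, 4.31. Of the 12 uterine markers, 8 were detected in liver and 10 in ovary, with *Hoxa11* in neither, and *Foxa2* had a higher level in control liver, 2.11, than in control uterus, −0.47. The uterus arrays carry a mismatch. In the authors' own table of log2 values, the column headed control uterus matched the scanner file of BHPF uterus within 0.001 for 99.1% of 38802 values, and the column headed BHPF uterus matched control uterus for 99.1%. The other 4 columns matched the array of their own label. Each scanner file was taken under its own label here, and with the table's headings each difference between BHPF and control uterus below has the opposite sign. A second feature of the uterus pair is that all 18 hepatocyte markers had a higher level on the BHPF uterus array, as described with the uterus results.

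Of the 51 genes, 37 had a signal well above background on 1 array or more, which is 72.5% against 86.9% of all genes. These were 22 claudins and 15 connexins. A core of 21 genes, 10 claudins and 11 connexins, was well above background on all 6 arrays. Both arrays of a tissue detected 25 genes in liver, 30 in ovary and 28 in uterus. The core included the endothelial claudin *Cldn5*, the widely made *Cldn12* and *Cldn15*, the epithelial *Cldn1*, *Cldn3*, *Cldn4*, *Cldn7* and *Cldn9*, and the connexins *Gja1*, *Gja4*, *Gjb1*, *Gjb2* and *Gjc1*. The 14 genes that were not well above background on any array were *Cldn13*, *Cldn16*, *Cldn17*, *Cldn18*, *Cldn19*, *Cldn24*, *Cldn34a*, *Cldn34b3*, *Cldn34b4*, *Gja10*, *Gjb5*, *Gjd2*, *Gjd4* and *Gje1*. *Cldn16* and *Cldn19* are known from the kidney, *Cldn18* from stomach and lung, and *Gjd2* from neurons.

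The first question was how the repertoire differs between tissues. Levels of all 43892 probes that stood well above background on any of the 6 arrays were fitted with limma, with tissue and treatment as terms, and p-values were adjusted over all those probes. Each tissue then has 2 pools, 1 control and 1 BHPF. The treatment term takes out the difference between them that the tissues share. The errors hold the spread between pools together with any BHPF effect that differs between tissues, and these cannot be told apart. They rest on 2 residual degrees of freedom, and the 3 contrasts share arrays. The fit used the signal of each array as it was, also where it was not well above background. In whole tissue, fewer cells of a type and less RNA per cell cannot be told apart. Ovary was set against liver first. With an adjusted p under 0.05, 14 of 37 claudins and connexins were higher in ovary, beside 30.3% of all genes, and 11 were lower, beside 34.5%. Without the control ovary array, the 14 became 8, and the share of all genes 19.0%. Between uterus and liver, 14 were higher in uterus, beside 28.2% of genes, and 10 were lower, beside 30.2%. Ovary and uterus were closer, with 3 genes higher in ovary, beside 12.6% of genes, and 14 higher in uterus, where 14.9% of genes were lower in ovary. That last total of 17, beside 27.5% of genes, fell to 10 and 8.36% without the control ovary array, to 7 and 6.05% without the control uterus array and to 5 and 4.78% without the BHPF uterus array. The 14 higher in uterus became 8, beside 4.74% of genes, without the control ovary array and 9, beside 4.45%, without the BHPF ovary array. They became 5, beside 3.54% and 2.53%, without the control or the BHPF uterus array. The 3 higher in ovary became 0, beside 2.25%, without the BHPF uterus array. Of all calls, 1 between ovary and uterus, 6 between ovary and liver and 5 between uterus and liver set a tissue with signal against one without any well above background. In all, 11 of the 37 members were called in each of the 3 tissue contrasts and 7 in none. The matching shares of all genes are not given here, so these counts are a description of the members alone.

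**Figure D1:**
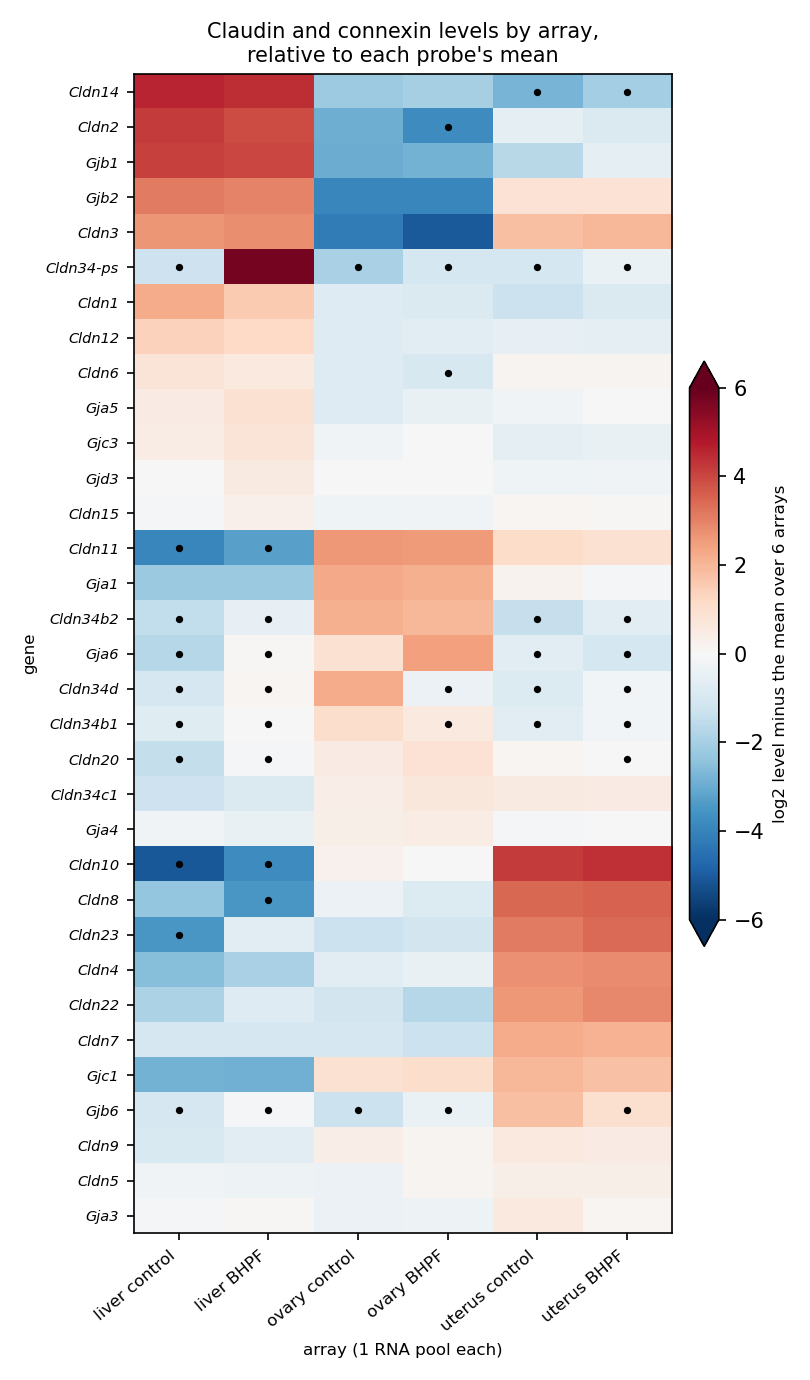
Level of 33 of the 37 claudin and connexin genes detected, that is well above background, on any array (rows) on the 6 arrays (columns), as log2 level minus the mean of that probe over the 6 arrays; black dots mark values that were not well above background. Rows are grouped by the tissue with the highest mean, which was liver for 13 of these genes, ovary for 9 and uterus for 11.

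A stricter description takes genes whose level in 1 tissue was at least 8-fold above both other tissues, in control and in BHPF mice. It held for 3 genes in liver, where 3.51% of all genes met it, for 7 genes in uterus, beside 1.2% of genes, and for 0 in ovary, beside 1.47%. These 10 genes were highest in the same tissue under all 6 other sets of levels tried. The smallest log2 difference among those was 2.67, for *Cldn7* with the 50th percentile of each array subtracted. There, and with normexp background correction, at 2.99, *Cldn7* fell short of 8-fold.

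Liver stood out by 1 connexin and 2 claudins. *Gjb1* encodes connexin 32, the main gap junction protein of hepatocytes. Its level was 4.69 in control and 4.60 in BHPF liver, −2.35 and −2.22 in ovary, and −1.07 and 0.01 in uterus. Both liver arrays were far above the other 4, and the 2 uterus arrays lay above the 2 ovary arrays. In control mice the liver level was 132-fold that of ovary and 54.2-fold that of uterus. By limma the log2 difference was −6.93 ± 0.34 (SE) for ovary minus liver, with an adjusted p of 0.000867, and −5.18 ± 0.34 for uterus minus liver, with an adjusted p of 0.00147. Both calls were kept with each of the 6 arrays left out in turn.

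*Cldn2* forms a channel for small cations and water. Its level was 1.75 and 1.44 in control and BHPF liver, −5.41 in control ovary, not well above background in BHPF ovary, and −2.98 and −3.35 in uterus. Liver was high, uterus intermediate and ovary at the edge of detection. Control liver was 143-fold above control ovary and 26.6-fold above control uterus. *Cldn14*, a barrier-forming claudin, had levels of 1.76 and 1.59 in liver and −5.01 and −4.81 in ovary, and was not well above background in uterus. Only the liver arrays were high, by 109-fold over ovary and at least 166-fold over uterus in control mice.

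Another 4 genes had liver as their highest tissue without meeting the rule for both other tissues, and they were picked after their values were seen. *Gjb2*, connexin 26, had levels of 3.87 and 3.72 in liver, −3.19 and −3.20 in ovary, and 1.57 and 1.59 in uterus. *Cldn3*, a barrier claudin of many epithelia, had levels of 2.95 and 3.08 in liver, −3.89 and −4.72 in ovary, and 2.10 and 2.28 in uterus. Both genes were therefore high in liver and uterus and low in ovary, and the uterus minus liver difference of *Cldn3*, −0.83 ± 0.32, did not pass the test with an adjusted p of 0.0967. *Cldn1*, needed for the barrier of skin, had levels of 0.87 and 0.20 in liver and between −2.69 and −2.16 on the other 4 arrays. *Cldn12* was also higher in liver, with an ovary minus liver log2 difference of −2.02 ± 0.14 and an adjusted p of 0.00163.

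The uterus had the largest set, and its 6 claudins are described here. Among the barrier-forming claudins, *Cldn4* had levels of 0.32 and 0.40 in control and BHPF uterus, −3.12 and −2.88 in ovary, and −4.98 and −4.41 in liver. *Cldn7*, which joins the lateral membranes of epithelial cells, had levels of 1.84 and 1.70 in uterus, −1.41 and −1.66 in ovary, and −1.40 and −1.39 in liver. *Cldn8*, best known from the distal nephron and colon, had levels of 0.92 and 0.99 in uterus, −2.91 and −3.34 in ovary and −4.85 in control liver, and was not well above background in BHPF liver. For each of these 3 genes both uterus arrays lay above the other 4, and the 2 other tissues were ordered differently, with ovary above liver for *Cldn4* and *Cldn8* and no call between them for *Cldn7*. For *Cldn8* that call was lost without either ovary array. The ovary minus uterus call of *Cldn8* was lost without the control ovary or the BHPF uterus array. For *Cldn4* and *Cldn7* the ovary minus uterus call was kept with each array left out in turn. In control mice uterus exceeded ovary 10.8-fold for *Cldn4*, 9.54-fold for *Cldn7* and 14.2-fold for *Cldn8*. The value for *Cldn4* is from its brighter probe. On its other probe the levels were −2.40 and −2.39 in control and BHPF uterus and −4.58 and −4.60 in ovary. That probe was not well above background in liver. Its ovary minus uterus difference was −2.19 ± 0.22, the same direction but short of 8-fold.

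*Cldn10*, whose splice forms make channels for cations or anions, had levels of 3.22 and 3.44 in uterus and −0.70 and −0.94 in ovary, and was not well above background in liver. Uterus exceeded ovary 15.1-fold and liver at least 460-fold in control mice, and the limma difference of uterus minus liver had an adjusted p of 0.000898, although the liver signals were not well above background. *Cldn22* had levels of −0.60 and −0.33 in uterus, −4.33 and −4.93 in ovary, and −5.11 and −3.99 in liver. *Cldn23* had levels of −0.79 and −0.53 in uterus, −5.23 and −5.02 in ovary and −4.54 in BHPF liver, and was not well above background in control liver. The last 2 genes were high on both uterus arrays only. Their liver and ovary intensities were at most 373.8, for *Cldn22* in control ovary. There the lowest intensity well above background was 93.33. The ovary minus uterus calls of *Cldn10* and *Cldn22* were lost without either uterus array. That of *Cldn23* was lost when any of the ovary or uterus arrays was left out. The uterus minus liver calls of *Cldn22* and *Cldn23* were lost without either uterus array, while that of *Cldn10* was kept throughout.

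Position along the chromosome was compared with these patterns. In RefSeq gene order *Cldn3* and *Cldn4* are neighbours, and shared the high level in uterus but not in liver. Other neighbours differed. *Cldn8* and *Cldn22* were high in uterus, while their neighbours *Cldn17* and *Cldn24* were not well above background on any array. *Cldn1* was detected in every tissue and its neighbour *Cldn16* in none. The neighbours *Gja3* and *Gjb2* were both detected in every tissue, so the pairs showed no single pattern.

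Epithelial markers were read on the same arrays. All 16 were well above background on both arrays of uterus and of ovary and 14 on both arrays of liver, where *Ap1m2* was on neither and *Ehf* on the control array alone. Their summed linear level, in units of the 75th percentile intensity, was 48.8 and 49.7 in control and BHPF liver, 14.5 and 14.3 in ovary, and 77.1 and 79.9 in uterus, with *Krt18* brightest in liver and uterus and *Spint2* in ovary. The part of epithelial content in the tissue differences was not tested.

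Ovary had its highest levels in a different set. *Gja1*, connexin 43, couples granulosa cells and smooth muscle cells, and its probe was printed at several places on each array. This gene and those that follow were picked after their values were seen. *Gja1* had a level of 2.45 and 2.33 in control and BHPF ovary, 0.38 and 0.05 in uterus, and −2.07 and −2.06 in liver. The order was ovary, uterus, liver, with SDs between spots of 0.07 to 0.15, and limma called all 3 contrasts. The ovary minus uterus difference was 2.17 ± 0.15 with an adjusted p of 0.00408, a call lost without the BHPF uterus array. *Cldn11*, the claudin of Sertoli cells and myelin, had levels of −1.31 and −1.33 in ovary and −2.77 and −3.00 in uterus, and was not well above background in liver. Its ovary minus uterus difference was 1.57 ± 0.27 with an adjusted p of 0.0283, a call lost when any of the ovary or uterus arrays was left out.

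*Cldn34b2*, a little-studied claudin on the X chromosome, was well above background on the 2 ovary arrays alone, with levels of −4.25 and −4.39. It entered the fit through those arrays, so its call over uterus, the third in that direction, sets a signal against background, and the call was lost without either uterus array. With dim probes kept in, the adjusted p was 0.0129. Its relatives *Cldn34b1* and *Cldn34d* were well above background in control ovary alone. *Gja6* was so in both ovary arrays alone. *Gjc1*, connexin 45, had levels of 1.16 and 0.96 in uterus, 0.10 and 0.22 in ovary, and −3.63 and −3.68 in liver. Its 3 tissues did not overlap, with uterus highest and liver lowest. The ovary minus uterus difference of *Gjc1* was −0.90 ± 0.15, a call lost when any of the ovary or uterus arrays was left out.

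The next 4 members were called in no tissue contrast, which does not show that their levels were equal. *Cldn5*, the main claudin of endothelium, had levels from 0.79 to 1.51 over the 6 arrays and was called in no contrast. *Cldn15*, a cation channel known from the intestine, ranged from 1.67 to 2.25 and was also not called. *Gjd3* ranged from −1.70 to −0.91 and *Gja3* from −2.80 to −1.91, both without a call. Endothelial markers were all well above background in every tissue, 16 of 16, with summed levels of 29.6 and 28.3 in control and BHPF liver, 21.6 and 23.2 in ovary, and 40.9 and 38.9 in uterus. *Egfl7* was the brightest of them in liver and *Cd34* in ovary and uterus.

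Further members had smaller tissue differences or a signal on few arrays. *Cldn6*, known from embryonic epithelium, was not well above background in BHPF ovary and had levels of −5.36 in control ovary, −3.80 and −3.98 in liver, and −4.42 and −4.41 in uterus. It was called lower in ovary than in liver with each array left out in turn, while its uterus minus liver call was lost whichever array was left out, and its ovary minus uterus call when any of the ovary or uterus arrays was left out. Its neighbour *Cldn9*, known from the inner ear, went the other way, with an ovary minus liver difference of 1.09 ± 0.17, a call lost without the control ovary array. *Cldn34c1* was higher in ovary and in uterus than in liver, by 1.60 ± 0.18 and 1.57 ± 0.18. The 2 probes of *Gja5*, connexin 40 of arteries and heart, were well above background on all 6 arrays and disagreed between tissues, so no order is given for it. The brighter probe was lower in ovary and uterus than in liver, by −1.31 ± 0.13 and −0.78 ± 0.13, and the second of these calls was lost when any of the ovary or uterus arrays was left out. On the other probe the differences were −0.050 ± 0.24 and 1.22 ± 0.24. Levels on the brighter probe were −0.99 and −0.58 in control and BHPF liver, −2.24 and −1.95 in ovary, and −1.68 and −1.46 in uterus, and on the other −2.42 and −2.11, −2.34 and −2.29, and −0.80 and −1.30. *Gjc3*, known from myelinating glia, was lower in ovary and uterus than in liver, with differences of −0.71 ± 0.14 and −1.12 ± 0.14. The first of these calls was lost without the BHPF liver array or either ovary array, and the second without the BHPF uterus array. *Gja4*, the connexin 37 of endothelium and oocytes, had levels between 0.55 and 1.45 on all 6 arrays and was called for ovary minus liver alone, at 0.73 ± 0.16. *Cldn20*, not well above background in liver, was called for ovary minus liver alone. These last 2 calls each held with 1 of the 6 arrays left out and were lost with any other, the exception being the control liver array for *Gja4* and the BHPF liver array for *Cldn20*. *Gjb6*, connexin 30, was well above background in control uterus only, and its uterus minus liver call is not used, since it was lost with dim probes kept in, with an adjusted p of 0.0556.

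Promoter sequence was read for the genes that were highest in 1 tissue. RefSeq windows of 300 bases around the transcription start, from build GRCm38.p6, were found for 37 of the 51 genes and for 7 of these 10. Both strands were searched for 7 short motifs. The estrogen response element, GGTCA and TGACC with any 3 bases between, was in 0 of the 49 claudin and connexin windows and in 0.07% of all 32851 windows, the HNF1 motif, GTTAAT and ATTAAC with any 1 base between, in 0 and 0.00913%, and the HNF4 motif CAAAGTCCA in 0 and 0.475%. The grainyhead motif AACCNGTT was in 2 of 49 windows against 2.09% of all, the TATA box TATAAA in 6 against 13.6%, the GC box GGGCGG in 20 against 35.7%, and the E box CAGGTG in 11 against 20.2%. No motif contains another, and a match is a description of the letters only. A pair of windows from the liver set and a pair from the uterus set are shown because each holds a TATA box, GC box or E box, in capitals, read 5′ to 3′ on the strand of the gene. They are *Gjb1* at chrX:101383482-101383781 on the plus strand, 1 of 4 windows of that gene, *Cldn2* at chrX:139800558-139800857 on the plus strand, *Cldn4* at chr5:134946885-134947184 on the minus strand, and *Cldn7* at chr11:69965171-69965470 on the plus strand, 1 of 2 windows.
Gjb1: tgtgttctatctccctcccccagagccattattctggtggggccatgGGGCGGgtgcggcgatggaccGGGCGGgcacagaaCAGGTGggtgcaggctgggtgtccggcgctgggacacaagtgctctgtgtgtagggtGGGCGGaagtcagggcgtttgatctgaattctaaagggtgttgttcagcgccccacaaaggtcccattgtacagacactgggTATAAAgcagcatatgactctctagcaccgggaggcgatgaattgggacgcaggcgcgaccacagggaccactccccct
Cldn2: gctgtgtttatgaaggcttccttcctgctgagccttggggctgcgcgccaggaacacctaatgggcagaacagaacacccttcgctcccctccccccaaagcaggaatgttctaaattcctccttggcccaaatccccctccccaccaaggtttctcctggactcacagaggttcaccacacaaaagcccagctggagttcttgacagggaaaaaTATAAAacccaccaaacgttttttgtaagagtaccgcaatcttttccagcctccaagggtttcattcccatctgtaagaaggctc
Cldn4: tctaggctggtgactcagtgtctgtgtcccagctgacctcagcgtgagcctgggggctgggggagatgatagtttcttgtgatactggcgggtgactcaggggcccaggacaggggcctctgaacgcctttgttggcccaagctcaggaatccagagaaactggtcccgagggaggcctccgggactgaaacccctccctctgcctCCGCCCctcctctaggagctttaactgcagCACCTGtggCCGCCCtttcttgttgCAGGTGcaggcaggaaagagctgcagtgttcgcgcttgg
Cldn7: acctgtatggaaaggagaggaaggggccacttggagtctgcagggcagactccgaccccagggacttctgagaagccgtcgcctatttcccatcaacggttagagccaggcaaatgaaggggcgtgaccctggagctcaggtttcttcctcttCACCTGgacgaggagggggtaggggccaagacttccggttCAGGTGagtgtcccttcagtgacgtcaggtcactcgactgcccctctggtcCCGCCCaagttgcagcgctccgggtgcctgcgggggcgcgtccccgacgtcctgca
Of all windows of the genes highest in liver, 2 of 8 hold a TATA box, 1 a GC box and 2 an E box, and of those of the genes highest in uterus, 0 of 6 hold a TATA box, 3 a GC box and 2 an E box. The 2 liver windows shown each hold 1 TATA box near the start, and the *Gjb1* window holds 3 GC boxes and 1 E box besides. The 2 uterus windows shown each have 2 E boxes, with 2 GC boxes in *Cldn4* and 1 in *Cldn7*.

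The second question was what BHPF did within each tissue. A gene was counted as changed at 2-fold, and no test was possible. In liver 4 of 28 evaluated members were at least 2-fold higher with BHPF, beside 3.08% of all genes, and 0 were lower, beside 1.68%. In ovary 1 of 35 was higher, beside 0.433% of genes, and 1 was lower, beside 0.653%. In uterus 2 of 31 were higher, beside 2.21%, and 0 were lower, beside 0.818%. The median log2 ratio of the members was 0.08 in liver, 0.05 in ovary and 0.02 in uterus, against 0.00, 0.01 and 0.00 for all genes. Among members well above background on both arrays, 20 of 25 in liver, 26 of 30 in ovary and 26 of 28 in uterus had log2 ratios within 0.5 of 0. Of all genes it was 12425 of 14484 in liver, 15292 of 16033 in ovary and 14175 of 15293 in uterus. Subtracting the 50th percentile instead moved the liver median to −0.31 for all genes and −0.24 for the members. The balance of all genes in liver depended on the scaling, with 478 higher and 261 lower here, 256 higher and 584 lower with the 50th percentile, and 230 higher and 369 lower with quantile normalization. Under each of those 2 scalings 1 member was higher and 0 were lower.

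Over the 3 tissues together, the treatment term of the limma fit called 0 of 37 members in either direction, and 0% of all genes were higher and 0% lower. With normexp background correction 8 members were below 0.05 without adjustment, beside 12.4% of genes, and without that correction 2, beside 3.89%. The 2 were *Cldn2*, with an estimate of −0.50 ± 0.15 on its brighter probe and −0.18 ± 0.50 on the other, and *Gja5*, with 0.31 ± 0.11 on its brighter probe and −0.051 ± 0.20 on the other, named after their values were seen. The first estimate for *Cldn2* rests in part on its BHPF ovary signal, which was not well above background. The 3 ratios of *Cldn2* were −0.31 in liver, −0.33 or lower in ovary, as a bound, and −0.36 in uterus.

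**Figure D2:**
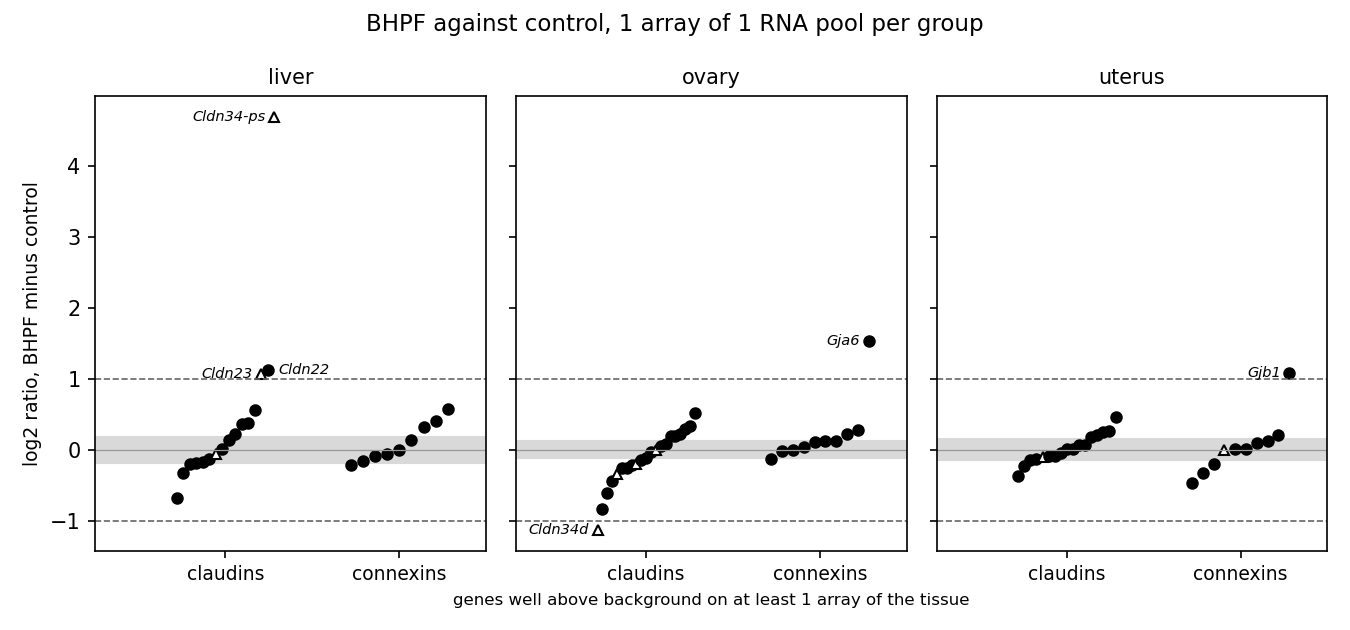
Log2 ratio of the BHPF array to the control array of the same tissue for those of the 33 claudins and connexins in the plot of levels that were well above background on either array. Filled circles are measured on both arrays, open triangles are bounds, dashed lines mark 2-fold, and the grey band spans the quartiles of all genes, and the named genes lie outside the dashed lines.

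In liver, 2 of the 4 genes past 2-fold were well above background on the BHPF array alone. *Cldn34-ps*, annotated as a claudin pseudogene, was well above background on the BHPF liver array alone, at an intensity of 1714 against 14.2 on the control liver array and 18.8 to 33.7 on the other 4. It was at least 25.6-fold higher with BHPF, from 1 spot per array. *Cldn22* went from a level of −5.11 to −3.99, which is 2.18-fold, and *Cldn23* from not well above background to −4.54, at least 2.11-fold. *Cldn22* and *Cldn23* fell below 2-fold with the 50th percentile of each array, with quantile normalization and with normexp background correction.

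The genes that mark liver were not among the changed ones. The log2 ratio was −0.09 for *Gjb1*, −0.15 for *Gjb2*, 0.14 for *Cldn3* and −0.17 for *Cldn14*. *Cldn1* had the lowest ratio in liver, −0.67, at intensities of 6285 and 3769. The 2 probes of *Cldn2* disagreed, with levels from 1.75 to 1.44 on the brighter probe and from −0.72 to −2.22 on the other, so that the log2 ratios of −0.31 and −1.50 differed by 1.19. The second probe was not well above background in ovary or uterus. Neutrophil markers differed between the same 2 arrays. Of 10 neutrophil markers, 8 were past 2-fold lower with BHPF and 0 higher. Their median was −2.57, with a summed level of 55.8 in control and 23.8 in BHPF liver, *Csf3r* brightest and *Mpo* not well above background on the BHPF array, and their part in the liver ratios was not tested. Of 11 pan-leukocyte markers evaluated in liver, 3 were past 2-fold lower and the median was −0.48.

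In ovary the 2 changes were in genes of low signal. *Gja6*, connexin 33, known from the testis, had levels of −5.06 in control and −3.53 in BHPF ovary and was not well above background on the other 4 arrays. The difference was 2.89-fold, at intensities of 225 and 554. *Cldn34d* had a level of −4.62 in control ovary and was not well above background in BHPF ovary or elsewhere, which gives at least a 2.17-fold lower signal. The connexins of the follicle had log2 ratios of −0.12 for *Gja1* and 0.12 for *Gja4*. For *Gja1* the SE between spots was 0.04, over 8 spots on the control and 10 on the BHPF array, and the spots of the 2 arrays overlapped.

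Over ovary, the median ratio was −0.11 for 21 claudins and 0.13 for 14 connexins, and the direction of these medians under other scalings was not computed. *Cldn3* had the lowest ratio among genes measured on both arrays, −0.83, with intensities of 507 and 242, and *Cldn22* followed with −0.60. The highest among claudins was *Cldn5* with 0.53. Granulosa cell markers had a median ratio of 0.15, with 0 of 11 past 2-fold, and oocyte markers 0.00, with 0 of 12. Of 9 neutrophil markers evaluated in ovary, 6 were past 2-fold lower and the median was −1.32, with a summed level of 13.9 and 11.45, *Csf3r* brightest and *Mpo* not well above background. Of 11 pan-leukocyte markers evaluated, all 11 had ratios below 0, with a median of −0.54, 2 past 2-fold, summed levels of 9.02 and 6.13 and *Csf1r* brightest. Of 7 adipocyte markers evaluated, 3 were past 2-fold higher, with a median of 0.040, summed levels of 3.75 and 4.48 and *Fabp4* brightest. The 7 oviduct and ciliated cell markers had a median of −0.55, with 1 past 2-fold lower, summed levels of 2.68 and 2.17 and *Ccdc39* brightest. The part of these lists in the ovary ratios was not tested.

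In uterus *Gjb1* was past 2-fold, with a level of −1.07 in control and 0.01 in BHPF uterus, a 2.11-fold difference. Hepatocyte markers moved between the same arrays. All 18 were higher on the BHPF uterus array, 17 of them at least 2-fold, with a median log2 ratio of 4.11, a summed level of 3.86 in control and 51.1 in BHPF uterus, and *Alb* brightest. For all 18, which were at least 8-fold higher in control liver than in control uterus, the excess of the BHPF over the control uterus array was 0.366% to 15.6% of the control liver level, with a median of 5.87%. The same measure was 2.05% for *Gjb1*, 3.21% for *Cldn1* and −0.84% for *Cldn2*. *Cldn14*, also high in liver, was not well above background on either uterus array. With normexp background correction the log2 ratio of *Gjb1* was 0.88, which is below 2-fold. The part of liver RNA in the uterus ratio of *Gjb1* was not tested. In ovary, 15 of 17 hepatocyte markers had ratios above 0, with a median of 0.19.

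The claudins that set the uterus apart were not past 2-fold between its 2 arrays. Their log2 ratios were 0.08 for *Cldn4*, −0.14 for *Cldn7*, 0.07 for *Cldn8*, 0.22 for *Cldn10*, 0.27 for *Cldn22* and 0.26 for *Cldn23*. Epithelial markers had a median of 0.08, with 0 of 16 past 2-fold. Of 6 adipocyte markers evaluated, 3 were past 2-fold lower, with a summed level of 4.77 in control and 2.67 in BHPF uterus, *Fabp4* brightest and *Lep* and *Plin1* not well above background. Of 10 neutrophil markers, 5 were past 2-fold lower, with summed levels of 31.8 and 29.0 and *Csf3r* brightest. The part of either list in the uterus ratios was not tested. *Gja1* had a ratio of −0.33, with an SE between spots of 0.05, which leaves out differences between pools. Its spots had levels of 0.26 to 0.51 on the control and −0.15 to 0.27 on the BHPF uterus array. The spots of the 2 arrays thus overlapped only at the ends of these ranges. *Gja3* had a ratio of −0.46. The 2 probes of *Gja5* pointed in opposite directions, 0.22 and −0.51, whereas in liver and ovary they had the same sign. With the authors' table as headed, the ratio of *Gjb1* was −1.08.

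Other junction genes were counted in the same way. None of the 14 transmembrane partners of the tight junction, among them *Ocln* and *F11r*, passed 2-fold in any tissue, and their median ratios were 0.02 in liver, −0.03 in ovary and 0.06 in uterus, over 13, 14 and 14 evaluated genes. The 24 scaffold and polarity genes had medians of −0.01, 0.00 and 0.02, with 0 past 2-fold. Adherens junction genes had medians of −0.15, −0.04 and −0.05 over 13, 12 and 13 genes, desmosome genes 0.07, −0.09 and −0.04 over 8, 7 and 8, and pannexins −0.22, 0.16 and −0.07 over 1, 2 and 1, again with 0 past 2-fold. *Ocln*, occludin, had levels of −0.75 and −0.50 in control and BHPF liver, −4.45 and −5.02 in ovary, and −1.10 and −1.07 in uterus. Like *Cldn3* it was low in ovary and higher in the other tissues.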

How the data were processed

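The authors scanned one-colour Agilent arrays and deposited, per the labels and file headers, a linear intensity for each spot with background subtracted and no normalization between arrays; the submitters' notes name Agilent Feature Extraction 9.1 and the file headers version 11.5.1.1. The authors also deposited a log2 table from GeneSpring, offset from the log2 intensity by 1 constant on each array, and its 2 uterus columns hold each other's array. Outlier spots were left out, spots of a probe were averaged as log2 values and each array's 75th percentile was subtracted. Symbols were found for 26762 of 55681 probes through the RefSeq table of GRCm38.p6. Tissue and treatment terms were fitted with limma 3.58.1 in R 4.3.3, with Benjamini-Hochberg adjustment. Members, lists and motifs were chosen with earlier results of these data known. Values on all arrays are given for genes past 2-fold with BHPF, at least 8-fold higher in 1 tissue, or with discordant probes, and some genes are not reported here. Alternatives covered background correction, scaling, dim probes, probe choice, the authors' table and left-out arrays.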

Additional observations from a re-analysis of the deposited data

How the results depend on the processing

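The number of claudins and connexins past 2-fold with BHPF was 4 in liver, 2 in ovary and 2 in uterus. With normexp background correction it was 2 in liver and 1 in uterus. There 352 of 15495 genes were higher and 210 lower in liver, and 326 and 92 of 16140 in uterus. With the 50th percentile it was 1 in liver, and with quantile normalization 1 in liver. The cause was not tested. When both arrays had to be well above background, it was 2 in liver, 1 in ovary and 1 in uterus, since bounds drop out, and with a 4-fold threshold 1, 0 and 1. With both arrays required, 251 of 14484 genes were higher and 205 lower in liver. In ovary these were 43 and 83 of 16033, and in uterus 187 and 91 of 15293. With dim probes kept in, liver had 13, where 1707 of 20248 genes were higher and 437 lower.

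The liver median of 0.08 was −0.24 with the 50th percentile, −0.068 with quantile normalization and 0.52 without the filter on dim probes, which gave 0.22 in uterus, and the cause was not tested. With the authors' table as headed, the uterus log2 ratio of *Gjb1* was −1.08, since the columns are exchanged.

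The limma count was 17 for ovary minus uterus, beside 27.5% of genes, and 11, beside 34.2%, with only probes well above background on all 6 arrays, where 21 members were tested. It ranged from 5 to 19, and genes from 4.78% to 31.8%, when 1 array was left out, which leaves a tissue with a lone array assumed to vary like the others. Ovary minus liver gave 25, beside 64.8%, then 15, beside 71.2%, with that filter and 17 to 24, beside 34.8% to 56.4%, with 1 array left out. Uterus minus liver gave 24, beside 58.4%, then 17, beside 67.2%, and 17 to 23, beside 32.0% to 50.4%. The treatment term called 0 members by limma under every alternative run, beside 1 to 11 members at an unadjusted p under 0.05, with 2 in the fit reported, 8 with normexp and 11 with dim probes kept in, where 682, 2174 and 2321 of all genes were.

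Over all alternatives, counts and medians stayed within their limits 105 times and moved 20 times. Single-gene ratios were run for *Cldn2*, *Cldn4*, *Cldn7*, *Cldn8*, *Cldn10*, *Cldn14*, *Cldn22*, *Cldn23*, *Cldn34-ps*, *Cldn34d*, *Gja6* and *Gjb1* only. Of 275 values for these genes, 220 stayed within their limits, 54 moved and 1 was reversed. The other sign was seen in 12, 8 of them with the table as headed, and 1 of these was past 2-fold. Signal over background limits low probes, and 14 of 51 genes could not be measured on any array.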
